A study of Homo sapiens with 8 samples.

Results

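The BCL2 family decides whether a cell keeps or permeabilizes its outer mitochondrial membrane, and 10 of its genes were followed here in the human pancreatic ductal adenocarcinoma (PDA) line SUIT2. The members were *BCL2*, *BCL2L1*, *MCL1*, *BAX*, *BAK1*, *BCL2L11*, *BBC3*, *PMAIP1*, *BID* and *BIK*. They were chosen by name for their known roles, not by their values, although earlier results of these data were known at that point. Their NCBI gene numbers were used to find them. All 10 were among the 25702 genes listed, and all 10 passed the filter on low counts, as did 14333 genes in all. The study used short hairpin RNAs (shRNAs) meant to reduce *EN1*, which encodes the homeobox transcription factor engrailed-1, to ask which transcripts depend on it. SUIT2 is an established line grown from a PDA metastasis. Bulk RNA sequencing covered 8 libraries, of which 4 were labelled shScr (a scramble shRNA control), 2 shEN1 #1 and 2 shEN1 #2 (2 hairpins against *EN1*). The *EN1* hairpins were in the lentiviral vector pLKO.1 puro, while the vector of the scramble control and the time from infection to harvest are not given in the sources used here. One cell line was used, so the libraries do not sample different tumours. The labels do not say that the libraries of a group came from separate cultures, so every p-value below measures only the spread between these libraries.

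Family members share the BH3 domain, a short helix, and act on each other by binding. The anti-apoptotic members *BCL2*, *BCL2L1* (which encodes BCL-XL) and *MCL1* hold the others in check. The effectors *BAX* and *BAK1* form pores in the outer mitochondrial membrane, from which cytochrome c leaves and starts the caspase cascade. The BH3-only members *BCL2L11* (BIM), *BBC3* (PUMA), *PMAIP1* (NOXA), *BID* and *BIK* carry signals of damage or stress and either occupy the anti-apoptotic members or activate the effectors. PDA cells are known to lean on BCL-XL and MCL1 for survival. RNA counts do not measure these proteins, many of which are controlled after transcription. Counts per gene also do not separate splice forms, which for *BCL2L1*, *MCL1* and *BCL2L11* can differ in activity.

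The BH3 core is the feature that the 10 members share in sequence, and its coding bases are shown because they define the family. Each line gives 30 coding bases, 5′ to 3′ on the strand of the gene, from the canonical GENCODE transcript on GRCh37. Capitals mark the codon of the first conserved leucine and the codon pair of the conserved glycine (alanine in *BBC3*) and aspartate.
BCL2: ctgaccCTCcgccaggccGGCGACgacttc
BCL2L1: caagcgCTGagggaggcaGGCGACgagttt
MCL1: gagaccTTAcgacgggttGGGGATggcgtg
BAX: gagtgtCTCaagcgcatcGGGGACgaactg
BAK1: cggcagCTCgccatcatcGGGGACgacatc
BCL2L11: caagagTTGcggcgtattGGAGACgagttt
BBC3: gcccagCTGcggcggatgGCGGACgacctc
PMAIP1: actcaaCTCaggagatttGGAGACaaactg
BID: aggcacCTCgcccaggtcGGGGACagcatg
BIK: ctgcggCTGgcctgcatcGGGGACgagatg

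The anti-apoptotic stretches lay at chr18:60985588-60985617 (*BCL2*), chr20:30309731-30309760 (*BCL2L1*) and chr1:150551347-150551376 (*MCL1*), all on the minus strand. Those of the effectors lay at chr19:49459038-49459067 on the plus strand (*BAX*) and chr6:33543170-33543199 on the minus strand (*BAK1*). Among the BH3-only members, *BCL2L11* (chr2:111907674-111907703), *PMAIP1* (chr18:57569899-57569928) and *BIK* (chr22:43523716-43523745) were on the plus strand. *BBC3* (chr19:47729842-47729871) and *BID* (chr22:18222187-18222216) were on the minus strand. All 10 stretches were exonic and coding, and none crossed an exon junction. A leucine codon followed at this spacing by glycine and aspartate codons occurred once in the coding sequence of 9 of the 10 members, and with alanine allowed for glycine it occurred once in each of the 10. Over the 45 pairs of members, between 10 and 23 of the 30 bases were identical. *BAK1* and *BIK* shared the most, and *BCL2L11* and *BID* the fewest. No value below depends on these stretches.

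The libraries held 33423590 to 37810604 counts each. *EN1* itself did not separate the labels. Its counts were 136, 167, 172 and 94 under the shScr label, 206 and 184 under shEN1 #1, and 53 and 218 under shEN1 #2. As CPM, which divides a count by the library total scaled with edgeR's TMM factor and is given per 1000000, mean *EN1* was 4.01 ± 1.06 (SD, n = 4) under shScr and 4.81 ± 2.37 CPM under shEN1, with an edgeR quasi-likelihood adjusted p of 1. The lowest library was shEN1 #2 replicate 1, whereas the other 3 labelled shEN1 lay above all 4 labelled shScr. The paper describes depletion of *EN1* in SUIT2 by hairpins, with a PCR measurement of *EN1* RNA against the scramble control. In these counts, libraries exchanged between labels and hairpins that left *EN1* as it was cannot be told apart. Each shEN1 against shScr value below thus compares libraries by label and not by a shown level of *EN1*. The series' design text names the organoids mM3P and mM15, whereas every sample label used here names SUIT2. On the first principal component of all tested genes (44.4% of the variance), shScr replicate 4 and shEN1 #2 replicate 1 stood apart from the other 6. The nearest library over all tested genes carried the other label (shScr against shEN1) for 7 of the 8 libraries. The epithelial identity of the line was clear, since 9 or 10 of 10 ductal markers reached 1 CPM in every library and their sum was 11500 to 18700 CPM. The fibroblast genes *COL1A2*, *COL3A1*, *LUM* and *DCN*, the blood genes *PTPRC*, *CD3E* and *HBB* and the islet hormones were at 0 in every library, and the summed fibroblast, endothelial and acinar lists did not exceed 4.22 CPM. Summed blood markers were 7.75 to 34.6 CPM, carried by *CD68*.

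SUIT2 cells held abundant transcripts for *BCL2L1* and *MCL1* and very little *BCL2*. Divided by the length of the canonical transcript, median *BCL2L1* was 223 CPM per kb over the 8 libraries, with a range of 188 to 328, and it was the highest member in every library. *MCL1* followed with 123 CPM per kb (88.9 to 173) and *BAX* with 90.7 CPM per kb (81.3 to 108). At the other end, *BCL2* had 0.503 CPM per kb (0.239 to 0.702). Per length, *BCL2* was thus below *BCL2L1* and *MCL1* in every library.

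Between these ends the median level was 45.5 CPM per kb for *BID*, 33.2 for *BAK1*, 27.7 for *BIK*, 13.9 for *PMAIP1*, 4.47 for *BCL2L11* and 0.802 for *BBC3*. Not every step in this order was larger than the spread over libraries. The ranges of neighbours overlapped for *MCL1* and *BAX*, *BID* and *BAK1*, *BAK1* and *BIK*, *BIK* and *PMAIP1*, and *BBC3* and *BCL2*. They were separate for *BCL2L1* and *MCL1*, *BAX* and *BID*, *PMAIP1* and *BCL2L11*, and *BCL2L11* and *BBC3*. A level per length assumes that the canonical transcript is the one present, which gene counts do not show.

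**Figure D1:**
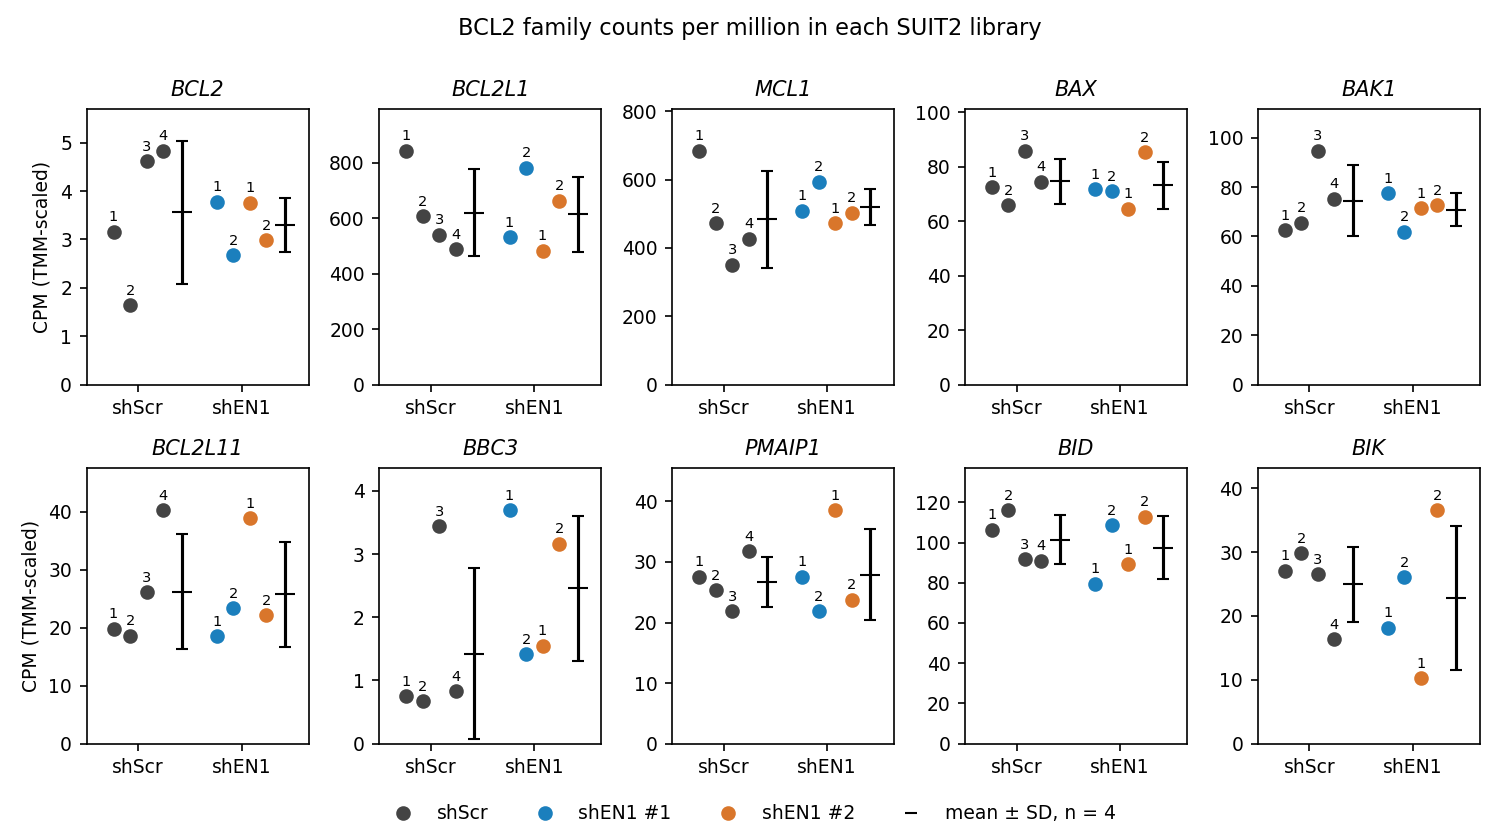
CPM (TMM-scaled, linear axis from 0) of each BCL2 family member in the 8 SUIT2 libraries, with the replicate number over each point and the mean ± SD (n = 4) of each label as a bar. Points of the 2 labels overlap in all 10 panels, and *BBC3* has 3 libraries labelled shScr below 1 CPM and the fourth at 3.44 CPM.

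None of the 10 members was called between the libraries labelled shEN1 and those labelled shScr. No member passed the edgeR quasi-likelihood test after Benjamini-Hochberg adjustment, where the background was 0% of 14333 genes called. At an unadjusted p under 0.05, 0 of 10 members passed, against 44 genes or 0.307% of all tested. That share lies far below the threshold of 0.05 itself, so 0 of 10 would be likely for any 10 genes. CPM ranges of the 2 labels overlapped for all 10 members, while 60 genes, 0.419% of all tested, had ranges that did not overlap. Other tools run on the same counts called 2 genes (DESeq2) and 0 genes (limma-voom), and no member was among them. The paper, by contrast, reports many differentially expressed genes in SUIT2 after *EN1* knockdown, with apoptosis among the processes enriched in them. Its text does not state the threshold for that comparison. The fitted log2 fold change was above 0 for 3 members and below 0 for 7, with a median of -0.03 beside -0.0028 over all tested genes. In bulk RNA, fewer cells that express a gene and less RNA per cell cannot be told apart.

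Among the anti-apoptotic members, *BCL2L1* was at 844, 607, 541 and 489 CPM under shScr. It had 533 and 783 CPM under shEN1 #1 and 483 and 663 CPM under shEN1 #2. The highest library was thus labelled shScr and the next shEN1, the lowest shEN1 and the next shScr, and the fitted log2 fold change was -0.01 (SE 0.20, 95% interval -0.46 to 0.43, edgeR adjusted p = 1). *MCL1*, which encodes a short-lived protein, had 684, 472, 351 and 427 CPM under shScr, 508 and 593 CPM under shEN1 #1 and 471 and 502 CPM under shEN1 #2. Both its highest and its lowest value carried the shScr label, and its log2 fold change was 0.10 (SE 0.19, 95% interval -0.32 to 0.52). *BCL2* had 3.16, 1.645, 4.62 and 4.83 CPM under shScr and 2.68 to 3.78 CPM under shEN1. That spread came from 61 to 181 counts per library, with exact 95% Poisson intervals of 46.7 to 78.4 and 156 to 209 counts at the ends, which cover counting error only. Its log2 fold change was -0.11 (SE 0.34), so a change in *BCL2* of less than 0.64 upward or 0.86 downward on the log2 scale was within the 95% interval.

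*BAX* varied least of the 10 members. It had 72.5, 65.8, 85.9 and 74.5 CPM under shScr, 71.7 and 71.0 CPM under shEN1 #1 and 64.6 and 85.3 CPM under shEN1 #2. Its highest library was 1.33 times its lowest, and its log2 fold change of -0.03 (SE 0.12, 95% interval -0.31 to 0.25) was the tightest of the 10. *BAK1* had 62.5, 65.5, 94.6 and 75.2 CPM under shScr and 61.9 to 77.5 CPM under shEN1, with shScr replicate 3 above every other library. Its log2 fold change was -0.07 (SE 0.15, 95% interval -0.39 to 0.25).

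Of the BH3-only members, *BBC3* and *BIK* varied more from library to library than any other member. *BBC3*, a direct target of p53, had 0.753, 0.674, 3.44 and 0.828 CPM under shScr, 3.70 and 1.41 CPM under shEN1 #1 and 1.55 and 3.17 CPM under shEN1 #2. It was high in 3 libraries of both labels, shScr replicate 3, shEN1 #1 replicate 1 and shEN1 #2 replicate 2, at 120, 132 and 103 counts, and held 25 to 61 counts in the other 5. Exact 95% Poisson intervals were 16.2 to 36.9 counts for the library with 25 in shScr replicate 1 and 110 to 157 for the one with 132. Over all 8 libraries the log2 fold change was 0.78 (SE 0.59, 95% interval -0.52 to 2.09, edgeR unadjusted p = 0.211, adjusted p = 1). Without shScr replicate 3 it was 1.70 (edgeR unadjusted p = 0.00448, adjusted p = 1), and leaving out any other single library gave 0.52 (without shEN1 #1 replicate 1) to 0.98. A fit with a block for replicate number gave 1.77 (edgeR unadjusted p = 0.0142, adjusted p = 0.999), a fit in which shScr replicates 3 and 4 do not bear on the difference, since those numbers occur under shScr alone.

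*BCL2L11* had 19.8, 18.6, 26.1 and 40.3 CPM under shScr, 18.6 and 23.4 CPM under shEN1 #1 and 38.9 and 22.2 CPM under shEN1 #2. Its highest values were in shScr replicate 4 and shEN1 #2 replicate 1, the libraries that also stood apart over all genes, and the log2 fold change between the labels was -0.02 (SE 0.29, 95% interval -0.68 to 0.63). Part of its exons, 727 bases, overlaps the RNA gene *MIR4435-2HG* on the opposite strand, and the strand setting of the counting is not given in the sources used here, so reads of that stretch cannot be assigned to one of them. *MIR4435-2HG* was counted at 21.7 and 23.4 CPM in those same libraries and at 20.04 to 30.98 CPM in the other 6. The part of these reads in the *BCL2L11* values was not tested.

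*PMAIP1*, whose protein binds MCL1, had 27.6, 25.3, 21.9 and 31.7 CPM under shScr and 27.5, 21.8, 38.6 and 23.8 CPM in shEN1 #1 replicates 1 and 2 and shEN1 #2 replicates 1 and 2. It too was highest in shScr replicate 4 and shEN1 #2 replicate 1, with a log2 fold change of 0.07 (SE 0.19) between the labels. *BIK* had 27.1, 29.8, 26.5 and 16.4 CPM under shScr and 18.2, 26.1, 10.3 and 36.6 CPM in the same order of shEN1 libraries. It was lowest in the libraries where *BCL2L11* was highest, and its log2 fold change was -0.13 (SE 0.35, 95% interval -0.91 to 0.65). *BID*, which links death receptors to mitochondria once cut by a caspase, had 90.9 to 116 CPM under shScr and 79.4 to 113 CPM under shEN1, with a log2 fold change of -0.06 (SE 0.14). Across the 5 BH3-only members no value separated the labels, and both ends of the *BIK* range were held by libraries labelled shEN1 #2.

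**Figure D2:**
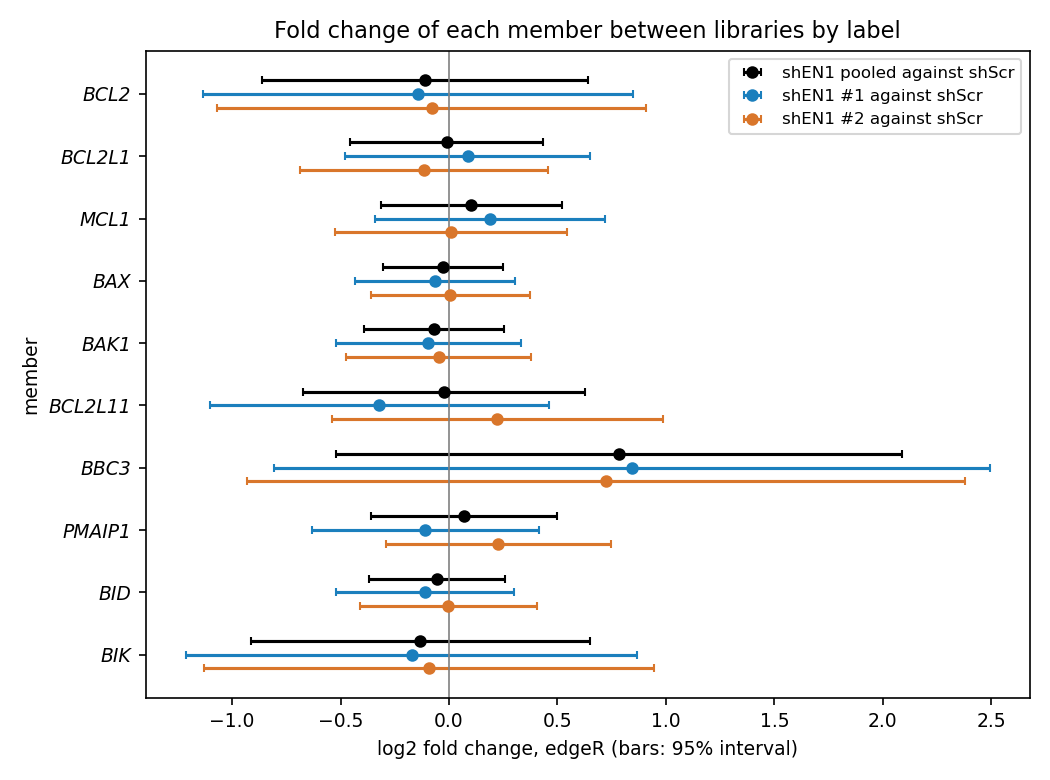
Fitted log2 fold change (edgeR) of each member by label, with 95% intervals as bars, for shEN1 pooled (black) and for each hairpin against the same 4 shScr libraries. Every interval crosses 0, and *BBC3* has the widest, from -0.52 to 2.09 for the pooled comparison.

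Taken one hairpin at a time, the members gave no call either. Both hairpins were compared with the same 4 controls, so their values are not independent. The fit with 3 groups called 0% of genes for shEN1 #1 and 0% for shEN1 #2, and no member was under an unadjusted p of 0.05 where 0.656% and 0.3% of the genes tested were. DESeq2 called 3 genes for shEN1 #1 and 0 for shEN1 #2, and limma-voom 0 for both, with no member among them. *BBC3* had a log2 fold change of 0.84 (SE 0.73) for shEN1 #1 and 0.72 (SE 0.74) for shEN1 #2. For shEN1 #1 it was -0.011 without shEN1 #1 replicate 1 and 1.76 without shScr replicate 3. For shEN1 #2 it was 0.12 without shEN1 #2 replicate 2 and 1.64 without shScr replicate 3. *BCL2L11* had -0.32 (SE 0.35) for shEN1 #1 and 0.22 (SE 0.34) for shEN1 #2, the most distant values of any member, and *PMAIP1* had -0.11 (SE 0.23) and 0.23 (SE 0.23). The 2 hairpins compared with each other gave 0% of genes called and 1.07% under an unadjusted p of 0.05. For *BCL2L11* that difference was 0.54 (shEN1 #2 higher, SE 0.40, 95% interval -0.35 to 1.43, edgeR adjusted p = 1.00), which does not pass the test. Leaving out shEN1 #2 replicate 2 moved *BIK* under shEN1 #2 from -0.09 to -1.28 (edgeR unadjusted p = 0.00719, adjusted p = 0.945), and leaving out shEN1 #2 replicate 1 moved it to 0.54.

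The members' variation ran across the labels. Over the 8 libraries the SD of log2 CPM was 0.985 for *BBC3*, larger than that of 94.7% of the genes tested, then 0.586 for *BIK*, 0.488 for *BCL2* and 0.447 for *BCL2L11*. *BAX* had the smallest, 0.152. The median gene had an SD of 0.263, and 7 of the 10 members were above it. Over the 10 members, the library nearest to each library carried the other label in 7 of 8 cases, by root mean square log2 difference. The count over all tested genes was also 7 of 8, so it is not particular to the members. The closest pair over the members was shScr replicate 1 and shEN1 #1 replicate 2 (0.32), which shared the highest *BCL2L1* and *MCL1*. The pair shScr replicate 3 and shEN1 #1 replicate 1 (0.35) shared high *BBC3*. The pair shScr replicate 4 and shEN1 #2 replicate 1 (0.38) shared high *BCL2L11* and *PMAIP1* with low *BIK* and *BCL2L1*. Within 1 label, shScr replicate 2 was nearest to shScr replicate 1, at a like distance (0.38).

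**Figure D3:**
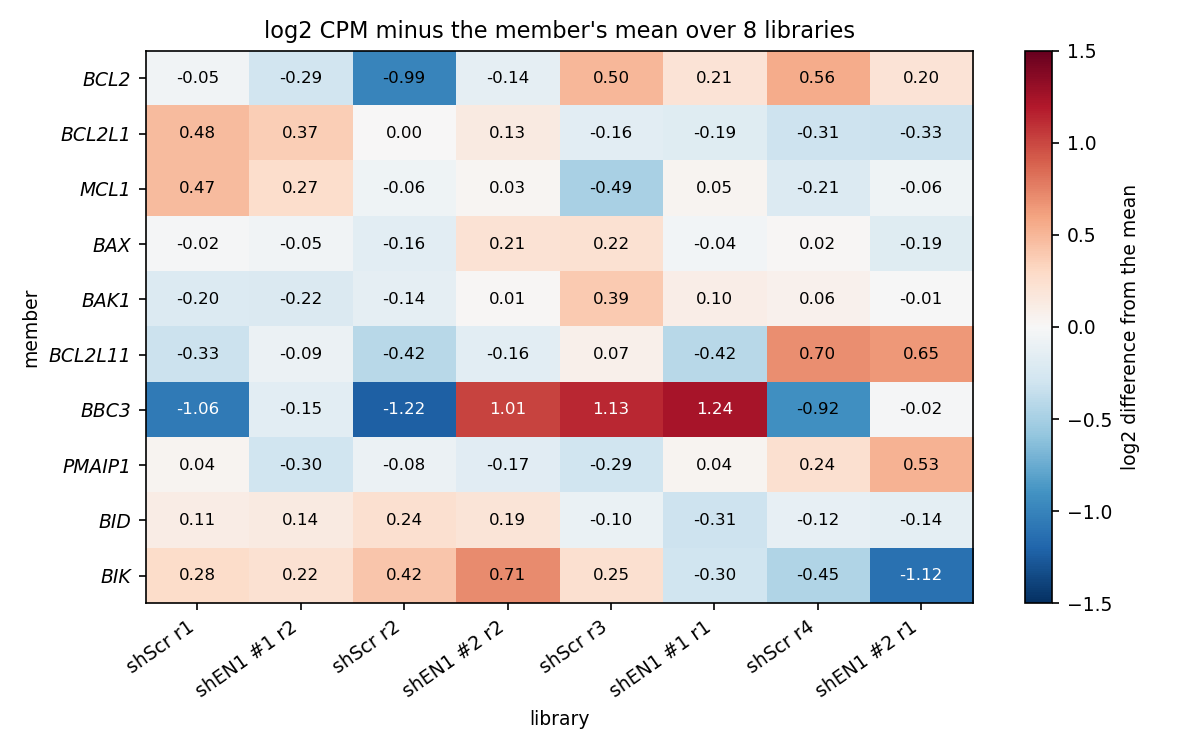
log2 CPM of each member minus its mean over the 8 libraries (color and printed value), with each library labelled shScr placed beside one labelled shEN1. Not every such pair is close: shScr replicate 2 and shEN1 #2 replicate 2 differed by 0.75 over the members (root mean square log2 difference). *BCL2L11* is 0.70 and 0.65 above its mean in shScr replicate 4 and shEN1 #2 replicate 1, where *BIK* stands at -0.45 and -1.12.

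The anti-apoptotic members made up most of the family's counts in every library. Their share of the counts of the 10 members was 82.9%, 77.0%, 71.9% and 73.6% in the libraries labelled shScr, 77.9% and 81.5% under shEN1 #1 and 75.3% and 76.6% under shEN1 #2. The mean was 76.4% ± 4.83 under shScr and 77.8% ± 2.66 under shEN1 (SD, n = 4 each), a difference of 1.45 percentage points that is smaller than either spread. Single libraries decided its size and sign: it was 3.61 points without shScr replicate 1, 0.53 without shScr replicate 4, 0.23 without shEN1 #1 replicate 2 and 2.29 without shEN1 #2 replicate 1, and -0.034 without shScr replicate 3. Divided by transcript length the share was 61.5% ± 6.21 and 63.2% ± 3.47. Without the member with the most counts on each side, *BCL2L1* and *BID*, it was 67.1% ± 7.92 and 70.0% ± 3.16. These shares were described and not tested, since the members were chosen as a list. The BH3-only genes took 48.5% to 59.2% of the pro-apoptotic counts, the effectors the rest. That share is of counts not divided by transcript length. Per length, median *BAX* (90.7 CPM per kb) was above every BH3-only member, of which *BID* was highest (45.5).

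**Figure D4:**
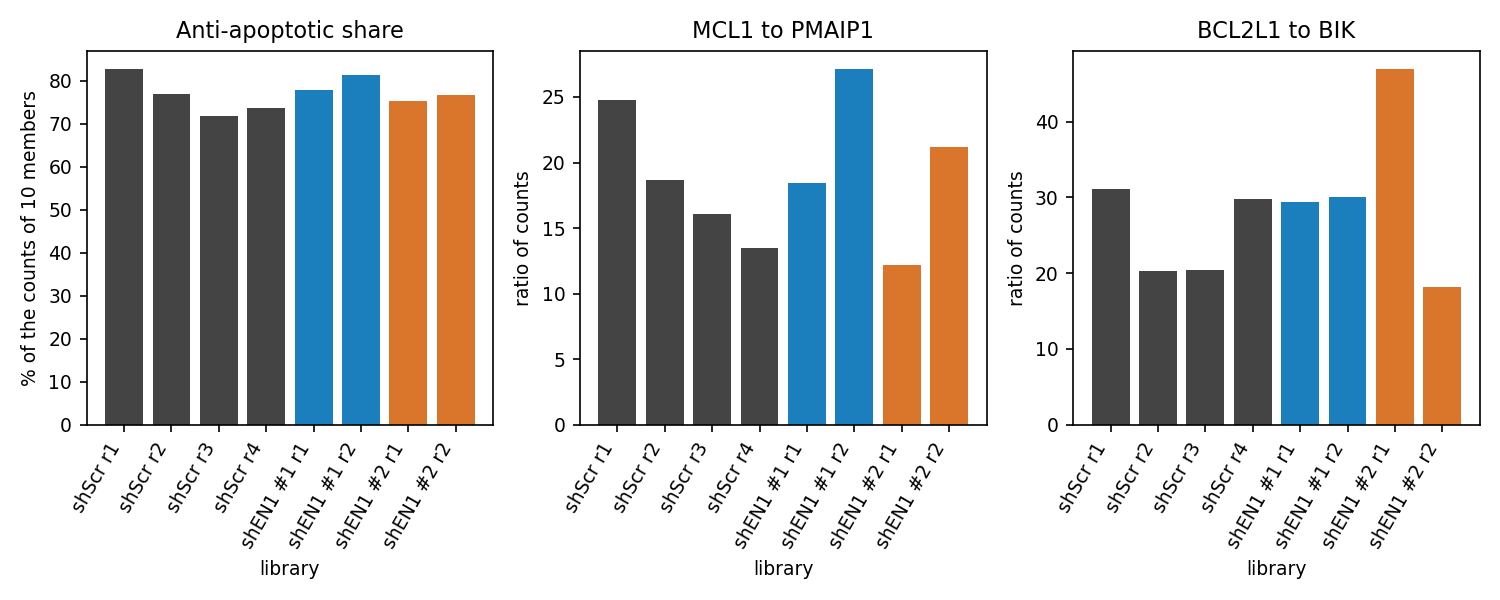
Share of the family's counts held by *BCL2*, *BCL2L1* and *MCL1* (left, percent), and the ratio of *MCL1* to *PMAIP1* counts (middle) and of *BCL2L1* to *BIK* counts (right), as 1 bar per library from 0, with shScr in grey, shEN1 #1 in blue and shEN1 #2 in orange. The share lies between 71.9% and 82.9%, and the right panel peaks at 47.0 in shEN1 #2 replicate 1.

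Ratios within a library do not depend on its scaling. *MCL1* to *PMAIP1*, a pair whose proteins bind each other, was 24.8, 18.6, 16.1 and 13.4 counts per count under shScr, 18.5 and 27.2 under shEN1 #1 and 12.2 and 21.2 under shEN1 #2. The lowest ratios were again those of shScr replicate 4 and shEN1 #2 replicate 1. *BCL2L1* to *BIK* was 31.1, 20.3, 20.4 and 29.9 under shScr, 29.3 and 30.01 under shEN1 #1 and 47.0 and 18.1 under shEN1 #2, so the hairpin with the highest ratio also had the lowest. *BCL2L1* to *BAX* averaged 8.43 ± 2.51 under shScr and 8.43 ± 1.74 under shEN1, and *BCL2L1* to *BAK1* averaged 8.74 ± 3.51 and 8.85 ± 2.75 (SD, n = 4 each). *MCL1* to *BCL2L1* was 0.778 ± 0.0943 under shScr and 0.862 ± 0.120 under shEN1. All 5 ratios overlapped between the labels.

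Of 13 other BCL2 family genes, 10 passed the filter. *BCL2A1* had no count in any library, *BCL2L10* had 1 count in 1 library and *HRK* had 4 counts at most. Of those tested, 5 had a fold change above 0 and 5 below, none was called and none was under an unadjusted p of 0.05 in the pooled comparison, and the median was -0.03. The highest was *BNIP3* (0.07, SE 0.22), a BH3-type protein of mitochondrial clearance, and the lowest *BCL2L14* (-0.70, SE 0.64), which had 5 to 31 counts per library. By hairpin, 2 of these 10 were above 0 and 8 below for shEN1 #1, and 5 above and 5 below for shEN1 #2, with 0 called. For shEN1 #1, 1 of the 10 was under an unadjusted edgeR p of 0.05, beside 0.656% of all tested genes, and for shEN1 #2 0 were. *BCL2L2*, the remaining well-known survival member, was at 52.4 to 67.1 CPM. *BNIP3L*, which marks mitochondria for clearance, was 70.6 CPM in shScr replicate 4 and 82.5 CPM in shEN1 #2 replicate 1, against 26.95 to 39.4 CPM in the other 6, the same libraries in which *BCL2L11* was high. It was named, like *BCL2L2*, after its values were seen.

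Downstream of the pore, all 15 genes of the mitochondrial pore and apoptosome list were tested, with 7 above 0, 8 below, 0 called, 0 under an unadjusted p of 0.05 and a median of -0.01. The ends of this list were *XIAP*, a caspase inhibitor (0.06, SE 0.10), and *CASP9*, the initiator caspase of the apoptosome (-0.28, SE 0.22). *CASP9* had 8.06 to 14.2 CPM under shScr and 6.15 to 9.77 CPM under shEN1, which overlap. Upstream, 21 of 22 regulators of the family's transcription or turnover were tested (*TP63* was filtered), with 14 above 0, 7 below and a median of 0.02. *ATF3*, a stress-induced factor, was highest (0.37, SE 0.43, 0.645 to 2.35 CPM) and *TP73*, a relative of p53, lowest (-0.17, SE 0.29, 8.15 to 20.1 CPM). Of 12 other p53 target genes, 7 were above 0 and 5 below with a median of 0.04, from *ZMAT3* (0.16, SE 0.19) to *SESN1* (-0.18, SE 0.20). Neither list had a gene called or under an unadjusted p of 0.05, and the median over all tested genes was -0.0028.

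*BBC3* was the member with the largest variance, and the genes nearest to its profile over the 8 libraries were *CRIP2* (root mean square log2 difference 0.39), *POU3F1* (0.40), gene number 100506618 (0.47), *CCN3* (0.47) and *TENM3-AS1* (0.49). The median tested gene was at 0.96, and a gene without any variation would be at 0.92, the root mean square of the *BBC3* profile around its mean. The named genes were picked as the nearest, so their small distances and similar patterns follow from that choice. *CRIP2*, a LIM-domain gene, had 2.53, 2.29, 7.26 and 1.79 CPM under shScr, 6.11 and 3.53 CPM under shEN1 #1 and 2.82 and 4.79 CPM under shEN1 #2. It was thus highest in the same 3 libraries as *BBC3*. *POU3F1* and the unnamed gene stayed below 1 CPM in every library. The likeness describes 8 libraries and was not tested.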

How the data were processed

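RNA from SUIT2 cells was extracted and paired-end libraries were sequenced by the authors, who aligned reads with HISAT2 and counted them per gene with featureCounts. The methods name hg19 as the build, whereas the submitters' processing notes name mm9. Versions, annotation and strand setting are not given in the sources used here. The deposited values are whole-number counts per NCBI gene number, unnormalized, 1 table per library. Symbols were matched for 23696 of 25702 numbers through a RefSeq table (GRCh38.p14, names only).

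Counts were filtered with filterByExpr (minimum count 10), scaled by TMM and tested with edgeR 4.0.16 (glmQLFit, robust, and glmQLFTest) in R 4.3.3, with shEN1 pooled or in a 3-group fit. Adjusted p-values (Benjamini-Hochberg) run over the 14333 genes tested and a gene was called below 0.05. DESeq2 1.42.0, which the methods name, limma 3.58.1 (voom), other scalings and filters, a replicate block and left-out libraries were alternatives. Log2 CPM for profiles used a prior count of 2. The procedure was also run on simulated counts with independent libraries and the same dispersion for all genes. These lack the likeness of libraries across labels seen here, so the run does not show the power in these data. Libraries held 33423590 to 37810604 counts.

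Members and lists were chosen with earlier results of these data known. Genes named were *EN1*, the members, each list's tested genes with the highest and lowest pooled fold change, and the 5 genes nearest to the most variable member's profile. Genes outside this rule are marked. Coordinates, transcript lengths and sequences are from GENCODE v44 lifted to GRCh37. Of 6 pairs of same-numbered libraries, 3 had a correlation of deviations over 0.1 (r from -0.332 to 0.437 over all 6). Pairs of a shEN1 #1 with a shEN1 #2 library share the same value (0.12) by construction. With 2 libraries per hairpin, the deviations from their mean mirror each other, so the count of 3 holds that value repeatedly. Not every pair deviated together, and replicate numbers were not taken as pairs.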

Additional observations from a re-analysis of the deposited data

Results flagged for a closer look

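One library far from the others of its label was found in 2 of 38 groups of 4 values examined, where about 1.9 would be found by chance (1 in 20). *BBC3* in shScr replicate 3 was 3.44 CPM, and its gap to the nearest of the other shScr libraries was 0.945 of their range, above Dixon's 95% critical value for 4 samples. The ratio of *BCL2L1* to *BAX* counts in shEN1 #1 replicate 2 was 11.0 (11.03), with a gap of 0.905 of the range of the shEN1 libraries, although shScr replicate 1 had 11.6.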

How the results depend on the processing

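No member was called under any of the 20 other settings in which members were tested, and the lowest adjusted p of a member was 0.401 (edgeR, *BBC3*, 1.67 on the log2 scale with both pairs of libraries left out). *BBC3* and *BCL2* had the fewest counts, each hairpin has 2 libraries, and *EN1* did not separate the labels. Of the fold changes recomputed for members and *EN1*, 501 kept their sign and 108 did not. No fold change of either kind was called, so neither the kept nor the turned signs are results, and the cause of the turns was not tested. Of the counts of calls, 13 moved from 0 and 105 stayed at 0. Of the shares and ratios, 78 moved by less than 1 SD over the libraries and 3 by more.

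Genes called in the pooled comparison, 0 above, were 2 with DESeq2, 0 to 1 leaving out each library, 1 without shScr 4 and shEN1 #2 replicate 1, and 1 without both pairs (adding shScr 3 and shEN1 #1 replicate 1), a setting chosen after seeing the data. For shEN1 #1 they were 3 with DESeq2, 1 without a filter, 1 with only the libraries compared, 0 to 1 leaving out each library, 2 without the first pair and 7 without both. For shEN1 #2 they were 8 without both pairs. The mean anti-apoptotic share over the 8 libraries was 62.3% per length and 68.6% without *BCL2L1* and *BID*. Without both pairs, *MCL1* to *BCL2L1* was -0.068 on the log2 scale (shEN1 minus shScr), and the difference in the anti-apoptotic share -0.92 percentage points, against -0.034 to 3.61 leaving out each library.

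Of 6 pairs of same-numbered libraries, 3 had a correlation of deviations over 0.1 and 3 did not, and the numbers were not taken as pairs. The pairs between the hairpins must share the same value (0.12), so this count is weak ground for either choice. The replicate block, the number taken as a block, called 1 gene and no member in the pooled comparison. It gave *BBC3* 1.77 in the pooled comparison, 1.80 for shEN1 #1 and 1.75 for shEN1 #2, and shScr replicates 3 and 4 do not bear on its differences. With the replicate block the sign turned to *BCL2* 0.50, *MCL1* -0.15, *BAX* 0.076, *BAK1* 0.14 and *BCL2L11* 0.41 in the pooled comparison, *BCL2* 0.47, *BCL2L1* -0.17, *MCL1* -0.060, *BAX* 0.043, *BAK1* 0.12 and *BCL2L11* 0.14 for shEN1 #1 and *BCL2* 0.54, *MCL1* -0.24 and *BAK1* 0.17 for shEN1 #2.

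Signs turned with other tools and scalings only near 0. For *BID* under shEN1 #2 the value was 0.0011 with DESeq2 and with its size factors, 0.0021 with upper-quartile scaling, 0.023 with library size only and 0.0042 with no filter. With limma-voom they were *BCL2* 0.0022 in the pooled comparison and *BCL2* 0.041 and *BAX* -0.0042 for shEN1 #2. Without shScr 4 and shEN1 #2 replicate 1 they were *BAX* 0.021 and *PMAIP1* -0.035 in the pooled comparison, *BCL2* 0.037 and *BCL2L1* -0.016 for shEN1 #1 and *MCL1* -0.0018, *PMAIP1* -0.072, *BID* 0.10 and *BIK* 0.39 for shEN1 #2. Without shScr 3 and shEN1 #1 replicate 1 they were *MCL1* -0.014, *BAX* 0.054, *BAK1* 0.020, *BCL2L11* 0.10 and *PMAIP1* -0.0078 in the pooled comparison, *BAX* 0.00047, *BID* 0.054 and *BIK* 0.10 for shEN1 #1 and *BCL2* 0.069, *MCL1* -0.12 and *BAK1* 0.089 for shEN1 #2. Without both pairs they were *BCL2* 0.24, *MCL1* -0.079, *BAX* 0.17, *BAK1* 0.070, *BCL2L11* 0.25, *PMAIP1* -0.22 and *BIK* 0.14 in the pooled comparison, *BCL2* 0.16, *BAX* 0.037 and *BCL2L11* 0.28 for shEN1 #1 and *BCL2* 0.31, *MCL1* -0.21, *BAK1* 0.18, *PMAIP1* -0.16, *BID* 0.015 and *BIK* 0.36 for shEN1 #2. Leaving out 1 library at a time, the log2 fold change in the pooled comparison ran from -0.35 to 0.072 for *BCL2*, -0.15 to 0.17 for *BCL2L1*, -0.024 to 0.32 for *MCL1*, -0.11 to 0.044 for *BAX*, -0.15 to 0.065 for *BAK1*, -0.30 to 0.26 for *BCL2L11*, 0.52 to 1.70 for *BBC3*, -0.13 to 0.17 for *PMAIP1*, -0.13 to 0.031 for *BID*, -0.46 to 0.11 for *BIK*. The same range of log2 fold changes for shEN1 #1 ran from -0.41 to 0.11 for *BCL2*, -0.20 to 0.34 for *BCL2L1*, -0.12 to 0.0080 for *BAX*, -0.27 to 0.075 for *BAK1*, -0.011 to 1.76 for *BBC3*, -0.29 to 0.066 for *PMAIP1*, -0.33 to 0.10 for *BID*, -0.44 to 0.066 for *BIK*. The same range of log2 fold changes for shEN1 #2 ran from -0.32 to 0.10 for *BCL2*, -0.36 to 0.082 for *BCL2L1*, -0.12 to 0.23 for *MCL1*, -0.21 to 0.18 for *BAX*, -0.12 to 0.089 for *BAK1*, -0.25 to 0.57 for *BCL2L11*, 0.12 to 1.64 for *BBC3*, -0.18 to 0.53 for *PMAIP1*, -0.18 to 0.14 for *BID*, -1.28 to 0.54 for *BIK*.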
